A study of Rattus norvegicus with 6 samples.

Results

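The miRNAs described here are those of a cluster of hairpins inside Clcn5, the X-linked gene of the endosomal chloride/proton exchanger ClC-5. Members were all listed mature miRNAs whose hairpin name is exactly miR-188, miR-362, miR-500, miR-501, miR-532 or miR-660, on either arm. Of the 562 mature miRNAs listed, 9 met this rule, from 5 of the 6 hairpins, with rno-miR-532-5p as the most abundant of them and rno-miR-532-3p as its partner strand. The species prefix is left out from here on. miR-660 and the 3p arm of miR-188 have no row in the files. They were measured by small RNA sequencing of the arcuate nucleus (ARC), the hypothalamic nucleus that holds the beta-endorphin neurons. RNA was taken on Day 14 from Sprague-Dawley rats of 8 to 10 weeks, in 3 libraries after sham operation and 3 after chronic constriction injury of the left infraorbital nerve (CCI-ION). In CCI-ION rats loose silk ligatures were tied around that nerve, whereas in sham rats it was exposed and not tied. The study's legend for its sequencing heatmap gives 6 rats per group, and the sources used here do not say which rats went into which library, so n counts libraries and p-values measure the spread between them, which may be technical in part.

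A miRNA hairpin is cut from a longer primary transcript by Drosha and then by Dicer into a duplex of a 5p and a 3p strand. Usually one strand of the duplex is kept in an Argonaute protein and pairs with target mRNAs through its seed, bases 2 to 8, while the other is mostly degraded. Hairpins that lie in one intron can come from a single primary transcript, yet the level of each mature strand also depends on how its hairpin is cut, which strand is kept and how long it lasts. miRNAs of this cluster are known from many tissues, and none of them is a marker of a single brain cell type.

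In the RefSeq entries of assembly GRCr8 the 5 hairpins lie on the plus strand of the X chromosome within the span of Clcn5, which has the same strand. Mir532 is at chrX:17919185-17919263 and Mir188 at chrX:17919585-17919664, with 321 bases between them. Mir362 follows at chrX:17926485-17926549, Mir501 at chrX:17927189-17927272 and Mir500 at chrX:17930647-17930726. The cluster spans 11542 bases. Exon limits were not used here, and the intronic position is the textbook one. Mature sequences of 8 of the 9 members matched by name, and miR-362-5p is named only. They are shown because both the arms and the seeds matter for the values that follow, with the seed in capitals:
miR-532-5p: cAUGCCUUgaguguaggacugu
miR-532-3p: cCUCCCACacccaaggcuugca
miR-188-5p: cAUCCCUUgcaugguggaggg
miR-362-3p: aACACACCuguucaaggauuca
miR-501-5p: aAUCCUUUgucccuggguga
miR-501-3p: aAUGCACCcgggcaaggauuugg
miR-500-5p: aAUCCUUGcuaucugggugcuuag
miR-500-3p: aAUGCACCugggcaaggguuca

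Among these 8 members miR-501-3p and miR-500-3p had the same seed, and no other pair did. The seed of miR-362-5p was not compared. They differ by 4 substitutions over the 22 bases compared, C9U, A18G, U21C and G22A, counted from the 5′ end with the base of miR-501-3p first. Counting could have assigned reads of one to the other, which leaves their separate values less certain than their sum. The RefSeq table also places miR-3560 within the span of Clcn5, and this miRNA is not among the rows of the files.

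The deposited values, called normalized counts here, are reads scaled by 1 size factor per library. Each value was a whole multiple of a step that is fixed within its library, and the smallest value above 0 was worth 5 steps, so a step was read as 1 read. On that reading the sham libraries held 11115049 to 14313839 reads and the CCI-ION libraries 8628309 to 11297551. A miRNA listed at 0 was therefore below 5 reads and need not be absent. Markers of neurons (5 of 5) and of the hypothalamus (2 of 2) were above 0 in every library. Of 8 marker lists, 4 had summed levels that did not overlap between groups, while single miRNAs did not overlap in 40.7% of those tested. Vessel wall markers were higher in CCI-ION libraries, at 151501 to 165454 normalized counts against 80232 to 105934 in sham libraries, and 2 of the 4 passed the test upward, against 3.42% of all miRNAs tested. The sums of neurons, hypothalamus and oligodendrocytes were lower, while 1 of 5, 0 of 2 and 1 of 3 of these markers passed downward, against 3.42% likewise. Their part in the results below was not tested, and in bulk tissue fewer cells of a type cannot be told apart from less RNA per cell.

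The cluster was dominated by one strand. miR-532-5p took 64.9% ± 1.101 of the normalized counts of the cluster in sham libraries (SD, n = 3), followed by miR-532-3p with 14.8% ± 0.987 and miR-501-3p with 11.6% ± 0.253. In CCI-ION libraries the share of miR-532-5p was 77.6% ± 3.21, that of miR-532-3p 7.39% ± 0.582 and that of miR-501-3p 8.27% ± 3.36 (SD, n = 3 each). The groups did not overlap in the share of either strand of miR-532, nor in those of miR-362-5p, miR-362-3p and miR-500-3p, which were lower. Shares of one sum depend on each other, so a larger share of miR-532-5p lowers those of the other members. Summed over all 9 members, the cluster came to 2568, 2270 and 2519 normalized counts across sham replicates 1, 2 and 3, and to 3949, 3241 and 4175 across CCI-ION replicates 1, 2 and 3. Without miR-532-5p the sums were 933, 778 and 870.7 in sham libraries and 853, 841 and 822 in CCI-ION libraries. The higher sum in CCI-ION libraries was thus carried by miR-532-5p, while the other 8 members together overlapped between the groups. That sum of 8 mixes directions. Within it miR-532-3p was lower and miR-362-5p higher in each CCI-ION library, and miR-501-3p was highest in CCI-ION replicate 2. Its overlap therefore does not show that the other members were unchanged. All values of the cluster were small beside the whole library, at 0.0204% ± 0.000438 of all normalized counts among sham libraries and 0.0363% ± 0.00493 among CCI-ION libraries (SD, n = 3 each).

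**Figure D1:**
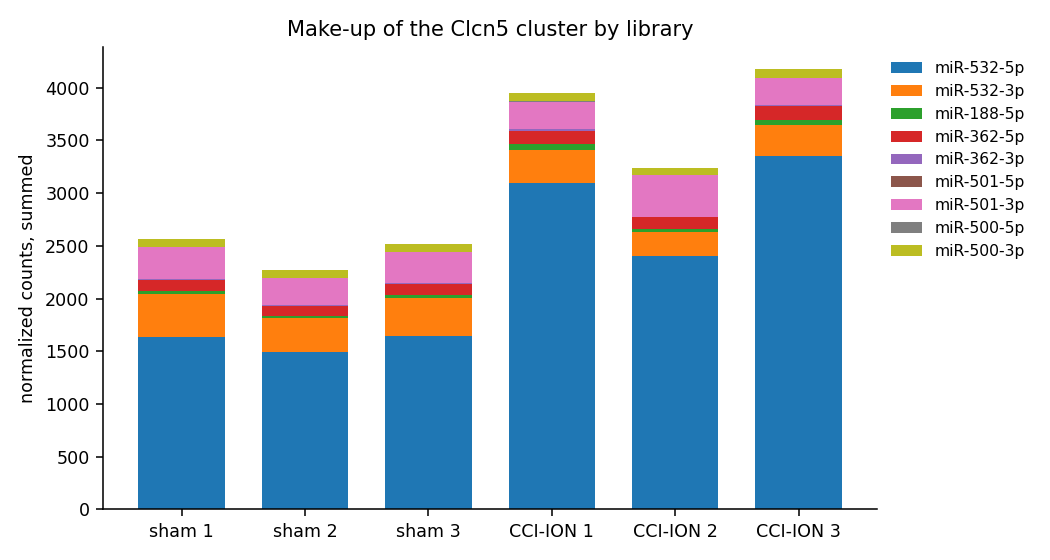
Normalized counts of the 9 mature miRNAs of the Clcn5 cluster, stacked for each of the 3 sham and 3 CCI-ION libraries. The miR-532-5p segment is taller in every CCI-ION library, while the segments above it sum to between 778 and 933 normalized counts in all 6.

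On its own, miR-532-5p reached 1635, 1492 and 1649 normalized counts across sham replicates 1, 2 and 3, and 3096, 2400 and 3352 across CCI-ION replicates 1, 2 and 3. The groups did not overlap, and CCI-ION replicate 2 was the lowest of its group. The means were 1592 ± 87.1 in sham and 2949 ± 493 in CCI-ION libraries (SD, n = 3 each), a ratio of 1.85. Fitted over the 555 miRNAs whose mean was at least 1, limma on log2(normalized count + 1) put the log2 fold change at 0.88, with a standard error of 0.16, a 95% interval of 0.48 to 1.27 and an adjusted p of 0.0435. Of the 7 members that could be tested, miR-532-5p alone passed the threshold of an adjusted p under 0.05, against 6.85% of all miRNAs tested and 3.42% in the direction of a rise. This call was close to the threshold. It was lost with upper-quartile scaling (adjusted p = 0.0587 from limma) and with the replicate number added to the fit as a block (adjusted p = 0.0937 from limma). It was also lost without any single library other than CCI-ION replicate 2 (adjusted p from 0.0787 to 0.144 in limma). Without that replicate the log2 fold change was 1.02 (adjusted p = 0.0170 from limma). Taken relative to the median of all miRNAs, which itself moved with the scaling, the change of miR-532-5p was 0.89 on the log2 scale as deposited. It was 0.91 with total counts and 0.89 with upper quartiles. Subtracting the median removes nearly all of a rescaling, so the likeness of these values was fixed in advance and does not test the scaling.

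Its partner from the other side of the hairpin, miR-532-3p, did not follow. It stood at 408, 319 and 360.8 normalized counts across sham replicates 1, 2 and 3, and at 318, 229 and 294 across CCI-ION replicates 1, 2 and 3. Each CCI-ION library lay below each sham library, although CCI-ION replicate 1 and sham replicate 2 differed by about 1 normalized count. The log2 fold change of miR-532-3p was -0.38 (standard error 0.18, 95% interval -0.81 to 0.06), and its adjusted p of 0.194 in limma missed the threshold.

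The arm ratio sets both strands against each other within a library, so that scaling between libraries nearly cancels. For miR-532 the 5p strand had 4.01, 4.67 and 4.57 times the normalized counts of the 3p strand in sham replicates 1, 2 and 3. The corresponding ratios were 9.73, 10.5 and 11.4 in CCI-ION replicates 1, 2 and 3. The highest sham ratio was thus less than the lowest CCI-ION ratio by a wide margin, with means of 4.42 ± 0.357 and 10.5 ± 0.841 (SD, n = 3 each). Over the 190 hairpins with both arms at a mean of at least 1, limma on the log2 ratio gave a change of 1.25 for miR-532 (standard error 0.14, 95% interval 0.91 to 1.59, adjusted p = 0.00741), which corresponds to a 2.38-fold higher ratio. By p it ranked 4 of the 190 and by size 24. Arm ratios passed the threshold in 10.5% of the hairpins, toward 5p in 4.21% and toward 3p in 6.32%. Without sham replicate 3 the change was 1.28 and its adjusted p 0.0582 in limma, and without any other library it passed. With the replicate number added to the fit as a block it missed the threshold (adjusted p = 0.0742 in limma). An exact permutation test of the same ratio had a two-sided p of 0.1, which is the lowest value possible with 3 libraries per group.

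As a share of the reads of both arms, miR-532-3p was 19.97%, 17.6% and 18.0% in sham replicates 1, 2 and 3. The lowest of the 95% Wilson limits of these shares was 16.1%. In CCI-ION replicates 1, 2 and 3 the share was 9.32%, 8.71% and 8.06%, from 342, 188 and 273 reads of the 3p strand, and the highest Wilson limit was 10.3%. The counting intervals of the groups therefore did not meet. Such intervals cover counting error only, since reads without molecular identifiers are not independent molecules.

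**Figure D2:**
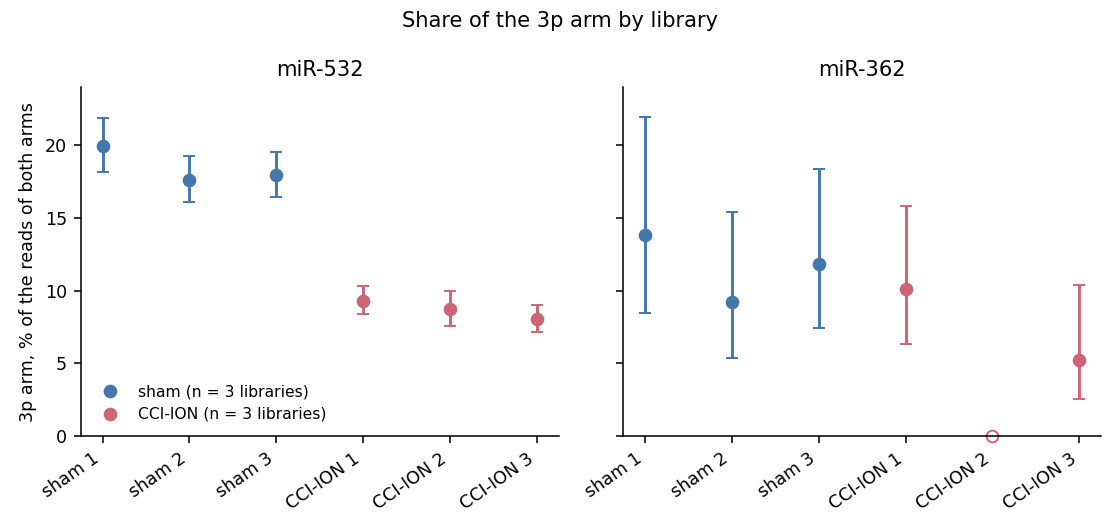
Share of the 3p strand in the reads of both arms, in percent, for miR-532 (left) and miR-362 (right) in each library, with 95% Wilson intervals as bars and an open circle for a 3p strand listed at 0. For miR-532 the sham libraries sit between 17.6% and 19.97% and the CCI-ION libraries between 8.06% and 9.32%, while for miR-362 the bars are wide and meet.

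miR-362 also had its 5p strand as the main product, at far fewer reads. For miR-362-5p the values were 99.4, 98.1 and 100.3 normalized counts across sham replicates 1, 2 and 3, and 132, 118 and 136.7 across CCI-ION replicates 1, 2 and 3. The groups did not overlap, and the sham values lay very close together. Its log2 fold change of 0.37 (standard error 0.11, 95% interval 0.10 to 0.64) missed the threshold in limma (adjusted p = 0.0906), but with total-count scaling it was 0.57 and passed (adjusted p = 0.0440 from limma). The 3p strand of this hairpin, miR-362-3p, was near the listing limit, at 16.0, 9.98 and 13.5 normalized counts across sham replicates 1, 2 and 3, worth 14, 12 and 16 reads. It reached 14.9 and 7.54 normalized counts, worth 16 and 7 reads, for CCI-ION replicates 1 and 3, and was listed at 0 for CCI-ION replicate 2, the library with the fewest reads. The groups overlapped for miR-362-3p, with a log2 fold change of -1.44 whose interval ran from -4.02 to 1.144 (limma, adjusted p = 0.361). Without CCI-ION replicate 2 this log2 fold change was -0.26, so the library at 0 set most of its size. The 5p strand of miR-362 had 6.21, 9.83 and 7.44 times the normalized counts of the 3p strand in sham replicates 1, 2 and 3. In CCI-ION replicates 1 and 3 the ratio was 8.88 and 18.1, and it has no value in replicate 2. The change in its arm ratio was 1.81 on the log2 scale with a 95% interval of -0.71 to 4.34 (adjusted p = 0.271 from limma), and 0.69 without CCI-ION replicate 2. At this depth a shift of the size seen for miR-532 could be neither seen nor excluded for miR-362.

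**Figure D3:**
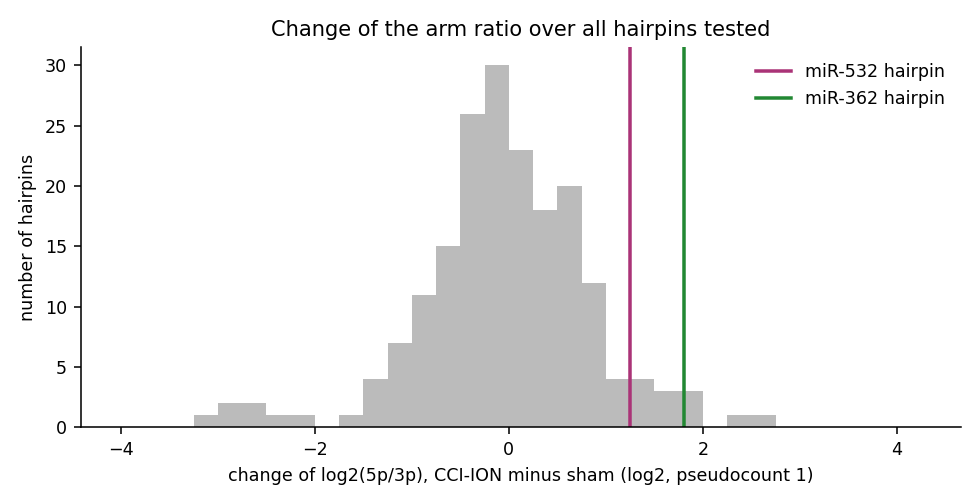
Histogram of the change in log2(5p/3p) between CCI-ION and sham libraries for the 190 hairpins tested, on a scale with a pseudocount of 1, with lines for miR-532 (1.25) and miR-362 (1.81). Both lie to the right of the median of -0.04, but the 95% interval of miR-362 runs from -0.71 to 4.34 and that of miR-532 from 0.91 to 1.59.

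The nearest neighbour of miR-532 in the genome is miR-188. miR-188-5p stood at 29.7, 21.6 and 23.6 normalized counts across sham replicates 1, 2 and 3, with 26 to 28 reads each. Across CCI-ION replicates 1, 2 and 3 it stood at 48.4, 28.0 and 46.3 normalized counts, with 52, 23 and 43 reads. CCI-ION replicate 2 fell within the sham range, as the lowest of its group, so the groups overlapped. The log2 fold change was 0.66 (standard error 0.25, 95% interval 0.03 to 1.29) and missed the threshold (adjusted p = 0.143 from limma). Without CCI-ION replicate 2 it was 0.91, with an adjusted p of 0.0505 in limma. miR-532-5p had 55.0, 69.0 and 69.9 times the normalized counts of miR-188-5p in sham replicates 1, 2 and 3 and 64.0, 85.7 and 72.4 times in CCI-ION replicates 1, 2 and 3. This ratio overlapped between the groups (exact permutation test, two-sided p = 0.3, adjusted 0.333 over 10 pairs of members), which does not show that both changed alike.

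miR-501 and miR-500, at the far end of the cluster, kept their 3p strand instead. miR-501-3p stood at 303, 257 and 295 normalized counts across sham replicates 1, 2 and 3, and at 258, 393 and 256 across CCI-ION replicates 1, 2 and 3. CCI-ION replicate 2 was the highest of all 6 libraries for miR-501-3p, whereas for miR-532-5p it was the lowest of its group. The log2 fold change of miR-501-3p was 0.06 with a 95% interval of -0.45 to 0.57 (adjusted p = 0.859 from limma), and without CCI-ION replicate 2 it was -0.14. miR-500-3p stood at 76.6, 72.3 and 73.3 normalized counts across sham replicates 1, 2 and 3, and at 77.2, 73.1 and 81.8 across CCI-ION replicates 1, 2 and 3. These are values within a narrow range in both groups. Its log2 fold change was 0.06 with a 95% interval of -0.20 to 0.32 (adjusted p = 0.704 from limma), and with upper-quartile scaling the sign of both 3p strands turned, to -0.19 for miR-501-3p and -0.18 for miR-500-3p. Their 5p strands were at the listing limit: miR-501-5p was listed above 0 only in sham replicate 3 and miR-500-5p only in CCI-ION replicate 1, each with 5 reads. Both fell below the mean of 1 needed for the test, so that neither their change nor the arm ratio of miR-501 or miR-500 was tested.

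**Figure D4:**
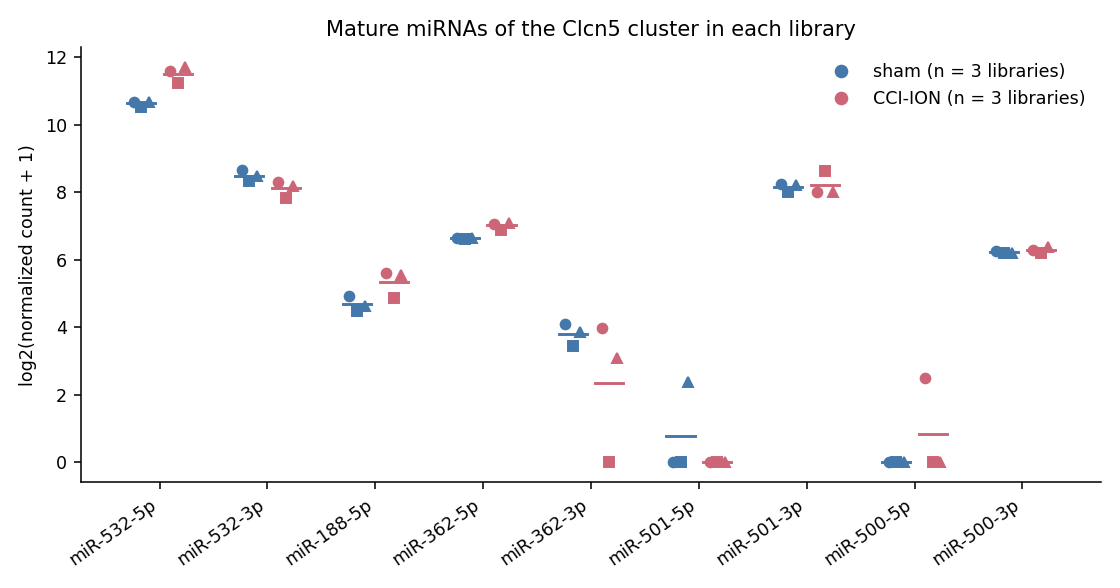
Values of the 9 members as log2(normalized count + 1) in the 3 sham and 3 CCI-ION libraries, with circles, squares and triangles for replicates 1, 2 and 3 and lines for the group means on this scale. The groups separate upward for miR-532-5p and miR-362-5p and, narrowly, downward for miR-532-3p, while the points of miR-500-3p lie together.

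Set side by side, the 7 members tested had 5 positive and 2 negative log2 fold changes, with a median of 0.06 against -0.01 over all miRNAs tested. All 3 tested 5p strands were on the positive side, and the 3p strands ranged from -1.44 to 0.06. Groups did not overlap for 2 members with higher and 1 with lower values in CCI-ION libraries, against 19.5% and 21.3% of all miRNAs tested in these directions and 40.7% in either. An unadjusted p under 0.05 was reached by 3 of the 7 (miR-532-5p, miR-362-5p and miR-188-5p) and by 33.0% of all miRNAs tested. The members' shares of 3 in 7 lie near these backgrounds.

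**Figure D5:**
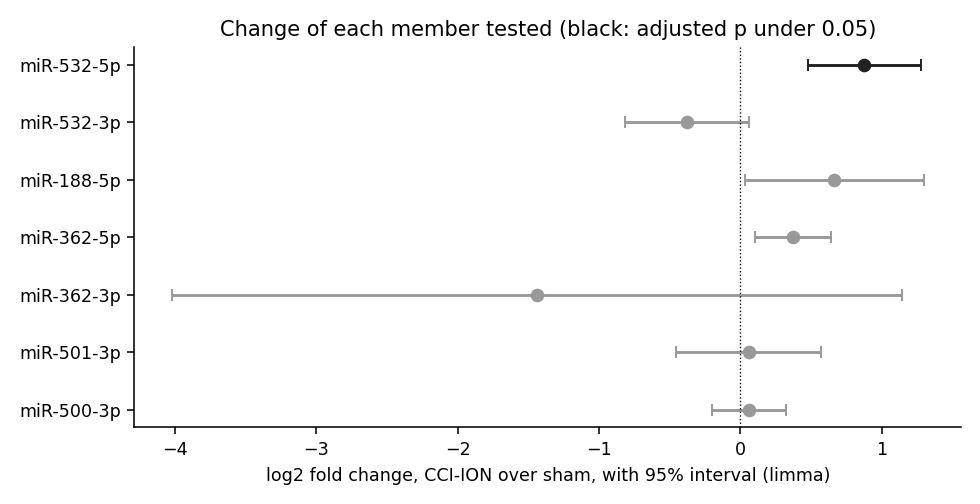
Log2 fold change of CCI-ION over sham for the 7 members tested, with 95% intervals from limma, in the order of the hairpins along the chromosome. miR-532-5p, in black, is the member past the threshold at 0.88, and the widest interval is that of miR-362-3p, which is listed at 0 in one library.

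Ratios between members were compared for 10 pairs chosen after their values had been seen, 9 of them between different hairpins and 1 the arms of miR-532 described above. miR-532-5p had 15.2 to 16.4 times the normalized counts of miR-362-5p in sham and 20.3 to 24.5 times in CCI-ION libraries, so that these 5p strands, which both had higher values, differed in the size of the change by 0.50 on the log2 scale. Against miR-500-3p the ratio of miR-532-5p was 20.6 to 22.5 in sham and 32.8 to 41.0 in CCI-ION libraries. Against miR-501-3p it was 5.40 to 5.81 in sham and 6.10 to 13.1 in CCI-ION libraries, where replicate 2 stood close to the sham range. miR-501-3p had 3.55 to 4.02 times the normalized counts of miR-500-3p in sham and 3.13 to 5.38 times in CCI-ION libraries, which overlap. Of the 9 pairs between hairpins 5 did not overlap, while single miRNAs did not overlap in 40.7% of those tested. The latter share is for levels, and none was computed for ratios between miRNAs. Each of the 5 had a two-sided exact permutation p of 0.1, the smallest possible, and an adjusted p of 0.167 over the 10. All of them but miR-532-3p over miR-500-3p have miR-532-5p as numerator, so they are not separate results. One of the 5 was miR-532-5p over miR-362-3p, where CCI-ION replicate 2 entered with miR-362-3p at the pseudocount alone.

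Strands with the seed of one of the 8 members with a sequence can pair with the same target sites. They were looked for among the listed miRNAs whose names matched a RefSeq sequence, and listed miRNAs without one were not compared. One matched the seed of miR-532-5p and one that of miR-362-3p:
miR-511-5p: cAUGCCUUuugcucugcacuc
miR-329-3p: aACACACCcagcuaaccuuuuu

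miR-511-5p, from an intron of the macrophage mannose receptor gene Mrc1, had the seed of miR-532-5p and few reads, with a mean of 5.33 ± 4.76 normalized counts for sham and 9.51 ± 3.47 for CCI-ION libraries (SD, n = 3 each). Its groups overlapped, with a log2 fold change of 1.23, a standard error of 0.94 and an adjusted p of 0.391 in limma. Among the miRNAs compared, miR-532-5p was thus nearly the whole of the reads with this seed. The seed of miR-362-3p had the opposite make-up. miR-329-3p, a miRNA of the imprinted Dlk1-Dio3 region, carried it at 5353 ± 374.04 normalized counts in the sham group and 4891 ± 680 in the CCI-ION group (SD, n = 3 each), far above miR-362-3p, and its log2 fold change was -0.14 with a standard error of 0.15 (limma, adjusted p = 0.540).

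The miRNAs most like miR-532-5p over the 6 libraries were found by the root mean square difference of centred log2 values, among 364 miRNAs, itself included, with a mean of at least 100. The nearest non-members were miR-24-2-5p at 0.10, miR-127-5p at 0.12 and miR-181c-5p at 0.14 on the log2 scale. Like miR-532-5p, they had their lowest CCI-ION value in replicate 2. They were chosen for a like pattern over these libraries, so this is not a separate result. Members of the same cluster were farther away: miR-362-5p ranked 26 at 0.27, miR-501-3p ranked 200 at 0.54 and miR-532-3p ranked 266 at 0.63. Those with a mean under 100 were not ranked, and among them miR-188-5p was at 0.19, nearer than miR-362-5p, miR-500-3p at 0.42 and miR-362-3p at 1.59. miR-24-2-5p, the less abundant strand of a miR-24 hairpin, averaged 771 ± 46.5 (sham) and 1580 ± 331 (CCI-ION) normalized counts (SD, n = 3 each). This measure is a description over 6 libraries and carries no test.

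Other miRNAs of the X chromosome were taken from a list of 48, of which 46 have an X entry in the RefSeq table and 2 have no entry. All 48 were tested with limma, and 0 passed upward and 3 downward, namely miR-221-3p, miR-98-5p and miR-421-5p, against 3.42% of all miRNAs in each direction. An unadjusted p under 0.05 was reached by 10 with higher and 10 with lower values, against 33.0% of all miRNAs tested in either direction. The median log2 fold change was 0.19 over the list and -0.01 over all miRNAs tested. miR-421-5p averaged 6.74 ± 1.63 normalized counts in the sham group (SD, n = 3) and was listed at 0 in each CCI-ION library, where 5 reads were worth 4.65 to 6.09, so its call rests on values near the listing limit. The most abundant were miR-221-3p, which fell from 18915 ± 533 to 10839 ± 751 normalized counts (SD, n = 3 each; limma log2 fold change -0.81 with an adjusted p of 0.0208), and miR-222-3p, whose log2 fold change of -0.57 missed the threshold (limma, adjusted p = 0.0649). Among X-linked hairpins outside the Clcn5 cluster, the arm ratio passed the threshold in 4 of 20, against 10.5% of all hairpins, and 1 of the 4 was miR-421, with its 5p strand at 0 in the CCI-ION group.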

How the data were processed

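Total RNA of rat ARC was sequenced as miRNA in 6 libraries (3 sham, 3 CCI-ION), grouped by their labels. The submitters' processing notes name cutadapt 1.14, Bowtie 1.1.1 and genome rn6. The miRNA annotation, the counting and the normalization are not given in the sources used here. The authors deposited a normalized signal per mature miRNA and library, found from the values to be reads over a size factor (whole multiples within 0.001 of a step in 100% of values). Up to a common factor, each size factor matched the median ratio of its library to the geometric mean of all libraries. That median was taken over the 485 miRNAs detected in every library. A small median change over all miRNAs is therefore largely built into the scaling.

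CCI-ION and sham libraries were compared on log2(normalized count + 1) with limma 3.58.1 in R 4.3.3, two-sided and without covariates. The fit held 555 miRNAs, each with a mean of 1 or more, with Benjamini-Hochberg adjustment over all of them and a threshold of 0.05. Arm ratios (5p over 3p, log2) were tested likewise over 190 hairpins. On the log2(value + 1) scale changes of low miRNAs are understated. Single ratios between members used exact permutation tests. Libraries of a group were checked against each other, and each pair differed beyond counting noise. Names and sequences are from RefSeq (GRCr8). The named miRNAs are all members, those sharing a seed with one, the 3 most like miR-532-5p, and of the X-linked list those past the threshold and the 2 most abundant; miRNAs named beyond this were chosen after their values were seen. The members, lists and tests were chosen with earlier results of these data known. Alternatives were other scalings, filters, a pseudocount of 0.1, a threshold of 0.1, the replicate number as a block, an intensity trend added after seeing the data, and leaving out each library.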

Additional observations from a re-analysis of the deposited data

How the results depend on the processing

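The arm ratio change of miR-532 kept its direction in all 13 alternatives that gave a value, and its side of the threshold in 11. It ran from 1.19 to 1.31 on the log2 scale, with adjusted p from 0.00627 to 0.0742 in limma. Both ends of this range are fits with a library left out. Scaling nearly cancels in the ratio, and the filters, trend and block cannot move its estimate. The number of cluster hairpins with a changed arm ratio was 1, and 0 with the replicate block. Leaving out each library in turn gave 0 to 1, with 0 without sham replicate 3. The log2 fold change of miR-532-5p was 0.63 to 1.08 and passed in 6 of 13. The number of members past the threshold was 1 as reported, 2 with total counts (miR-532-5p and miR-362-5p), 0 with upper quartiles, 0 with the replicate block, 2 at a threshold of 0.1, and 0 to 1 with each library left out in turn. Where 0 members passed with the block, 154 miRNAs had an unadjusted p under 0.05 and 3 passed after adjustment in limma. With upper quartiles these counts were 205 and 94. In the fits with 0 members and a library left out they were 120 to 176 and 7 to 35. Signs turned for miR-501-3p and miR-500-3p with upper quartiles (-0.19 and -0.18), and for miR-501-3p with a library left out (-0.14 to 0.16). The cause of these changes was not tested.

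Over all miRNAs, 38 passed as reported (19 higher), 51 with total counts (42 higher), 94 with upper quartiles (10 higher), 63 with a mean of at least 10, 88 with the intensity trend, 3 with the block, and 7 to 43 with a library left out. Over all miRNAs the median change was -0.01 on the log2 scale, 0.17 with total counts and -0.26 with upper quartiles. Deviations from the group means correlated at -0.03, 0.19 and -0.01 for replicate numbers 1, 2 and 3. Differently numbered libraries were not compared in this way, so these values do not settle whether the number marks a pairing. With the replicate block the log2 fold changes were as reported, with adjusted p = 0.0937 for miR-532-5p and 0.0742 for the arm ratio of miR-532 (limma). Count-based tests of the inferred reads, listed among the alternatives, were not run. Fewer reads in CCI-ION replicates 2 and 3 limit what can be said of strands near 5 reads.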
